A study of Mus musculus with 9 samples.

Results

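The genes of the collagen chains were read across 9 RNA sequencing libraries of mouse cells. A gene was taken where its symbol is Col, a number, the letter a and a number, which gave 32 of the 13787 listed genes. A gene of similar spelling, Col4a3bp, encodes no collagen chain and was left out. The annotation holds 44 collagen chain genes, and the other 12 (Col4a3, Col4a4, Col4a6, Col6a4, Col6a5, Col9a1, Col9a3, Col17a1, Col19a1, Col22a1, Col23a1 and Col25a1) were not analysed here.

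The study turned CF-1 mouse fibroblasts into extraembryonic endoderm-like cells, called ciXEN cells, with a mixture of chemicals and bFGF (a fibroblast growth factor) and no introduced gene. Lines 1-1, 2-1 and 3-3 gave 1 library each at passage 30 (p30) and 1 at passage 5 (p5), and mouse embryonic fibroblasts (MEFs) at passage 3 gave 3 further libraries. By the study's methods, ciXEN clones were picked by hand from Matrigel-coated wells and grown on in KnockOut DMEM with serum, serum replacement, bFGF, VPA, CHIR99021, RepSox, Parnate, forskolin, AM580 and EPZ004777, later with less bFGF, CHIR99021 and forskolin, whereas MEFs grew in high-glucose DMEM with serum and none of these agents. Medium and cell type cannot be told apart in any comparison with MEFs. Each picked clone went into a well of its own, but the labels do not say whether a line is 1 such clone, and the 6 ciXEN libraries come from 3 lines. Nothing says that the MEF libraries come from separate cultures or embryos, so the p-values measure only the spread between these libraries, which may be technical.

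Collagens are proteins of the extracellular matrix in which 3 chains wind into a helix. Fibrillar collagens (types I, II, III, V and XI, with the minor types XXIV and XXVII) build the fibres of connective tissue, and fibroblasts are known as a main source of types I, III and V. Type IV collagen instead forms the sheet-like network of basement membranes, which types XV and XVIII and the laminins join. In the mouse embryo the parietal endoderm, a derivative of the extraembryonic endoderm, lays down a thick basement membrane rich in type IV collagen and laminin.

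The type IV chain genes Col4a1 and Col4a2 lie head to head, so the place where they start is shown here because their levels came apart in the results. On GRCm38.p6, Col4a1 (ENSMUSG00000031502) spans chromosome 8 from 11198423 to 11312826 on the minus strand, and Col4a2 (ENSMUSG00000031503) spans 11312805 to 11449287 on the plus strand. Their annotated 5′ ends share 22 bases, in capitals, with 4 bases on each side, read on the plus strand at chr8:11312801-11312830 from RefSeq's promoter table.
Shared start of Col4a1 and Col4a2: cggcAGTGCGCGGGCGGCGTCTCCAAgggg
The study's own qPCR primers for Col4a1 and Col1a1 are shown because they say which transcripts that assay can read. In GENCODE M21 on GRCm38 the Col4a1 pair brackets 107 bases over exons 2 to 4 (chr8:11246895-11267600, minus strand), and the Col1a1 pair 86 bases within exon 51, the last (chr11:94951601-94951686, plus strand).
Col4a1 forward: aaagggagaaagaggcttgc
Col4a1 reverse: ctccagcatcacccttttgt
Col1a1 forward: ccctgcctgcttcgtgtaaa
Col1a1 reverse: tcgtctgtttccagggttgg

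Values are FPKM (fragments scaled to transcript length and to the mapped fragments of the library), deposited per transcript and summed here over the 62 listed transcripts of the 32 genes. FPKM are per length, so levels of different chains can be set side by side. The FPKM of a library summed to 314895 to 341556, and 10593 to 11130 genes reached 1 FPKM. How deeply each library was read is unknown, so no counting interval is given, and a chain without signal is said to be listed at 0. Groups were compared with limma's two-sided test on log2(FPKM + 1), with p-values adjusted after Benjamini and Hochberg over the 12443 genes whose mean reached 0.5 FPKM. The words rose and fell are used of an adjusted p under 0.05. The added 1 makes the log2 change of a low gene smaller than the ratio of its FPKM. In such bulk libraries, fewer cells that make a collagen and less of its RNA per cell cannot be told apart.

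The cell labels were checked against marker lists. All 6 extraembryonic endoderm markers (Sox17, Gata4, Gata6, Foxa2, Sox7 and Pdgfra) were higher in ciXEN cells, at a summed 714 to 970 FPKM in ciXEN libraries and 37.3 to 49.4 FPKM in MEFs, and all 7 fibroblast markers were lower, at 1.80 to 10.7 FPKM in ciXEN libraries and 460 to 581 FPKM in MEFs. Of the parietal endoderm markers 7 of 9 were higher and 2 lower (Sparc and Plat), at a summed 1246 to 2345 FPKM in ciXEN libraries and 1622 to 1679 FPKM in MEFs. Sparc made up most of the MEF sum, with 1407 to 1447 FPKM there and 324 to 805 FPKM in ciXEN libraries. The visceral endoderm markers differed by passage. Of 7 tested, 6 were higher and 0 lower at p30 (summed 335 to 435 FPKM), and 4 were higher and 2 lower at p5 (156 to 187 FPKM), against 54.5 to 61.4 FPKM in MEFs. Markers of other cell types also moved with the groups. Smooth muscle markers summed to 1.94 to 2.38 FPKM in ciXEN libraries and 1103 to 1768 FPKM in MEFs (5 of 5 lower), macrophage markers to 1.48 to 3.43 FPKM in ciXEN libraries and 76.4 to 141 FPKM in MEFs (4 of 4 tested lower), and osteoblast markers to 32.0 to 136 FPKM in ciXEN libraries and 905 to 1111 FPKM in MEFs (2 of 3 lower, Alpl higher). The osteoblast sum in MEFs was nearly all Spp1 (895 to 1103 FPKM), while Runx2 had 6.78 to 11.7 FPKM there. The osteoblast markers Sp7, Bglap and Ibsp were not analysed here. Chondrocyte markers summed to 8.56 to 34.1 FPKM in ciXEN libraries and 21.3 to 37.7 FPKM in MEFs (2 of 3 tested lower), most of it Sox9, which did not pass (8.22 to 33.9 FPKM in ciXEN libraries and 18.6 to 23.1 FPKM in MEFs). Acan, which defines cartilage, stayed at 0 to 0.0566 FPKM in ciXEN libraries, and Epyc was listed at 0 there. Skeletal muscle markers (1 of 1 tested lower), the Schwann cell marker Erbb3 (higher) and keratinocyte markers (0 of 1) never exceeded a summed 6.36 FPKM in a library. Endothelial markers summed to 6.15 to 18.6 FPKM in ciXEN libraries and 1.68 to 2.25 FPKM in MEFs (2 of 3 tested higher). The part of such cells in the collagen levels was not tested.

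The collagen make-up of ciXEN cells differed from that of MEFs in nearly every class. The 32 genes together held 600 to 1185 FPKM in the p30 libraries, 763 to 1534 FPKM in the p5 libraries and 4781 to 5437 FPKM in MEFs, which is 0.176% to 0.450% of all FPKM in ciXEN cells and 1.46% to 1.69% in MEFs. Fibrillar chains made up 1.20% to 3.32% of the collagen FPKM in ciXEN cells and 67.7% to 69.9% in MEFs. Type IV chains made up 70.2% to 96.3% in ciXEN cells and 2.57% to 4.52% in MEFs. No ciXEN library came near a MEF library in either share.

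**Figure D1:**
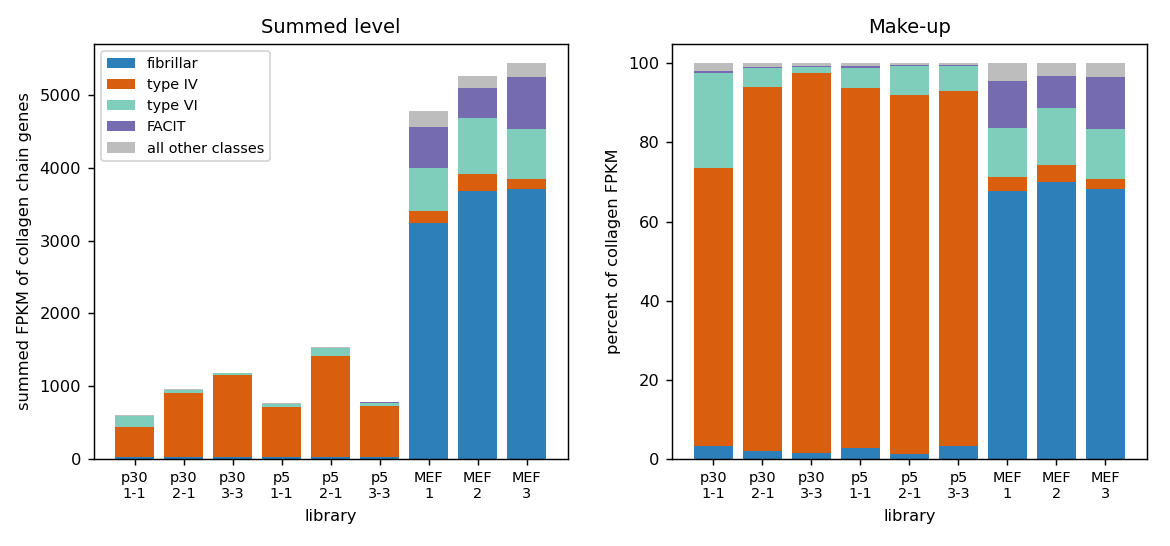
Summed FPKM of the collagen chain genes (left) and their make-up in percent (right) in each library, stacked by class, with the 3 ciXEN lines at p30, the same lines at p5, and 3 MEF libraries. Fibrillar chains stood at 15.9 to 25.8 FPKM in ciXEN libraries and 3237 to 3710 FPKM in MEFs, type IV chains at 421 to 1391 FPKM in ciXEN libraries and 140 to 238 FPKM in MEFs.

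By mean FPKM, 28 of the 32 genes were lower in ciXEN cells than in MEFs and 4 were higher (Col4a1, Col4a2, Col13a1 and Col20a1). All 6 ciXEN libraries lay under all 3 MEF libraries for 27 genes and over them for 2 (Col4a2 and Col13a1), and the libraries overlapped for Col4a1, Col20a1 and Col11a2. Among the tested genes these numbers were 23 and 2 of 27, where the background was 24.4% lower and 36.8% higher. Of the 32 genes, 27 passed the filter on low values and were tested, and 23 fell, 3 rose (Col4a2, Col13a1 and Col20a1) and Col4a1 did not pass. Across all tested genes the background was 27.6% lower and 42.4% higher. Of the 27 tested genes, 12 had a ciXEN mean under 0.5 FPKM and passed the filter through MEFs alone, and 2 of the 3 that rose (Col13a1 and Col20a1) had a MEF mean under 0.5 FPKM and passed through ciXEN cells alone. Such genes had to differ, so the counts and the median over the 27 are a description and no evidence. Of the 13 at 0.5 FPKM or more in both kinds of cell, 11 fell, 1 rose and 1 did not pass. The share of all genes at that level in both that fell or rose was not computed, so this count too is a description. The median log2 change was −3.59 over the 27 genes and 0.20 over all tested genes. With the 2 passages of a line averaged to 1 value, 23 again fell and 3 rose.

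**Figure D2:**
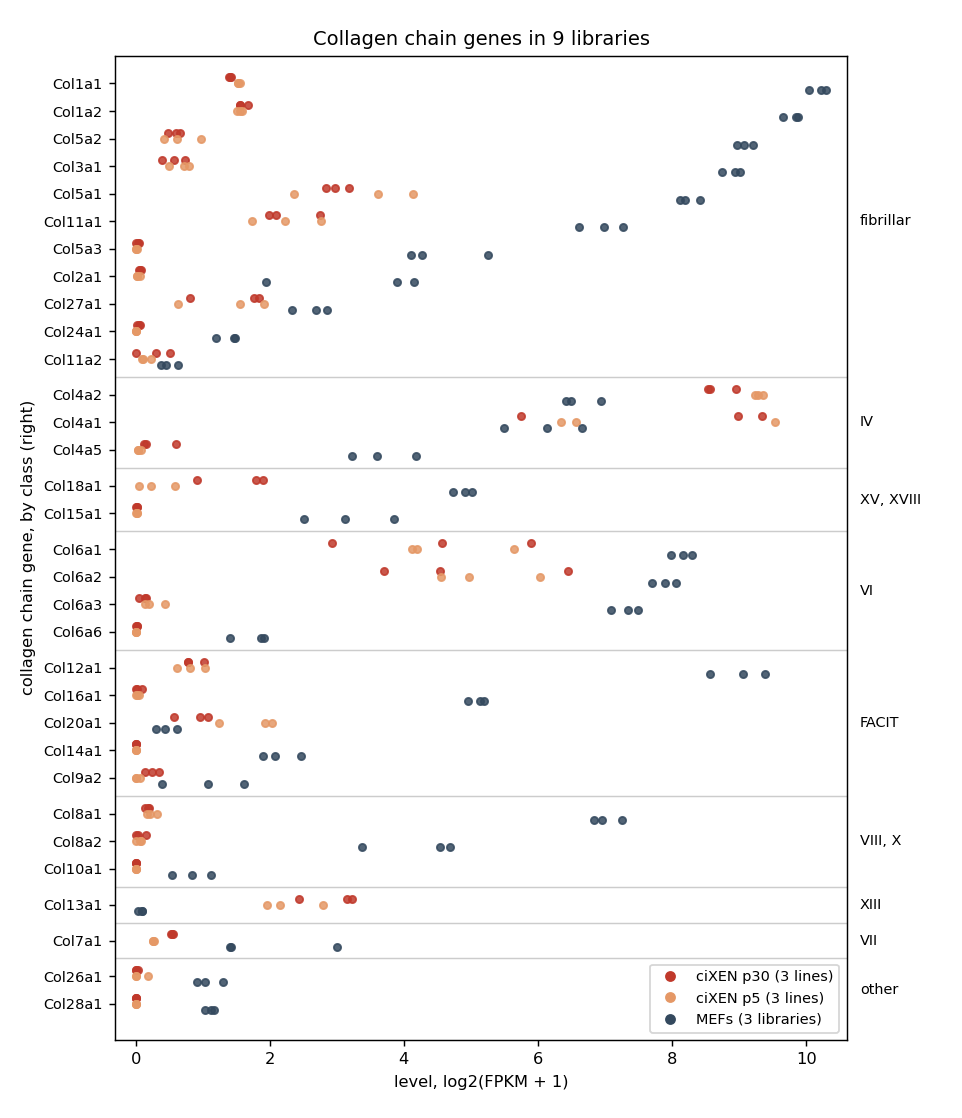
Level of each collagen chain gene in each library as log2(FPKM + 1), grouped by class, with 3 points for ciXEN p30, ciXEN p5 and MEFs. In 27 of 32 genes the ciXEN points all lie left of the MEF points, and in Col4a2 and Col13a1 all lie right of them.

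Type I collagen, the main fibre protein of skin, bone and tendon, had the clearest contrast. Col1a1 (ENSMUSG00000001506, chromosome 11 from 94936224 to 94953042) had 1.69, 1.66 and 1.64 FPKM in lines 1-1, 2-1 and 3-3 at p30, 1.89, 1.94 and 1.88 FPKM at p5, and 1054, 1255 and 1192 FPKM in the MEF libraries. Its ciXEN libraries differed by 1.19-fold at most, and each stood far under every MEF library. It ranked 8 to 12 among the listed genes of a MEF library, and 9926 to 10169 in a ciXEN library. The log2 change was −8.71 (SE 0.080, adjusted p = 1.5e-11). Its partner chain Col1a2 had 2.21, 1.95 and 1.94 FPKM at p30, 2.01, 1.85 and 1.95 FPKM at p5, and 804, 915 and 938 FPKM in MEFs (log2 change −8.21, SE 0.083, adjusted p = 1.5e-11). The type I trimer is known to hold 2 Col1a1 chains for each Col1a2 chain. Col1a1 stood at 0.767 to 1.05 times Col1a2 in ciXEN cells and at 1.27 to 1.37 times in MEFs, so the ratio of the transcripts did not overlap between the groups. In ciXEN cells this ratio rests on low residues, at 0.153% (Col1a1) and 0.224% (Col1a2) of the MEF mean. The genes at 100 FPKM or more in MEFs and under 1% of it in ciXEN cells had a median of 0.142%. The source of such residues was not tested, so the ratio says little about the chains that ciXEN cells make.

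Col5a2, a chain of type V collagen, which sits inside type I fibres, was as low. It had 0.579, 0.518 and 0.401 FPKM at p30, 0.340, 0.973 and 0.540 FPKM at p5, and 499, 537 and 589 FPKM in MEFs (log2 change −8.45, SE 0.13, adjusted p = 1.7e-10). Col3a1, the chain of type III collagen and a neighbour of Col5a2 on chromosome 1 with a gap of 24614 bases, ranged over 0.308 to 0.731 FPKM in ciXEN cells and 425 to 518 FPKM in MEFs (log2 change −8.28, SE 0.12, adjusted p = 1.4e-10). These 4 chains stood at 0.103% to 0.224% of their MEF mean in ciXEN cells.

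Col5a1, another of the 3 listed type V chains, stood higher in ciXEN cells than Col5a2. It had 6.18, 8.10 and 6.87 FPKM at p30, 11.3, 4.14 and 16.6 FPKM at p5, and 293, 340 and 278 FPKM in MEFs, a fall of 5.06 (SE 0.32, adjusted p = 7.0e-07) to 2.92% of the MEF mean. Col5a1 therefore stood at 4.25 to 33.2 times Col5a2 in ciXEN cells and at 0.472 to 0.633 times in MEFs. The ciXEN ratio rests on Col5a2 residues of 0.340 to 0.973 FPKM, 0.103% of its MEF mean. Col11a1, a type XI chain that can pair with type V chains, was similar to Col5a1, with 2.34 to 5.80 FPKM in ciXEN cells and 96.9 to 153 FPKM in MEFs (3.16% of the MEF mean, log2 change −4.69, SE 0.25, adjusted p = 2.5e-07). These 2 were the highest fibrillar chains of ciXEN cells, and Col1a1 was the highest in MEFs.

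Of the other 5 fibrillar chains, with MEF means of 0.403 to 23.8 FPKM, 4 fell and Col11a2 was too low to test. Col2a1, the chain of cartilage type II collagen, had no more than 0.0606 FPKM in a ciXEN library, against 13.9, 2.85 and 16.7 FPKM in MEFs. The chondrocyte markers Acan (1.54, 0.334 and 2.06 FPKM in MEFs), Comp (4.06, 0.960 and 6.27 FPKM) and Epyc (3.70, 0.675 and 4.69 FPKM) were likewise low in MEF library 2, as was Hapln1 (1.03, 0 and 1.07 FPKM). The other listed chondrocyte markers did not follow. Matn3 (1.37, 0.748 and 0.459 FPKM) was lowest in MEF library 3, and Sox9 (18.9, 18.6 and 23.1 FPKM) was nearly level between libraries 1 and 2. The part of chondrocytes in the Col2a1 level was not tested. Col5a3 reached 0.0369 FPKM in ciXEN cells and 37.0 FPKM in MEFs, and Col24a1 reached 0.0459 FPKM in ciXEN cells and 1.80 FPKM in MEFs. Col27a1, a fibrillar chain of cartilage, fell least. It had 2.59, 2.39 and 0.758 FPKM at p30, 0.551, 2.76 and 1.95 FPKM at p5, and 4.02, 6.22 and 5.43 FPKM in MEFs (log2 change −1.20, SE 0.32, adjusted p = 0.0074). For p30 alone its fall of 1.15 (adjusted p = 0.021) was no longer called without p30 line 3-3 (−0.82, adjusted p = 0.072), MEF library 2 (−1.03, adjusted p = 0.069) or MEF library 3 (−1.12, adjusted p = 0.058).

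**Figure D3:**
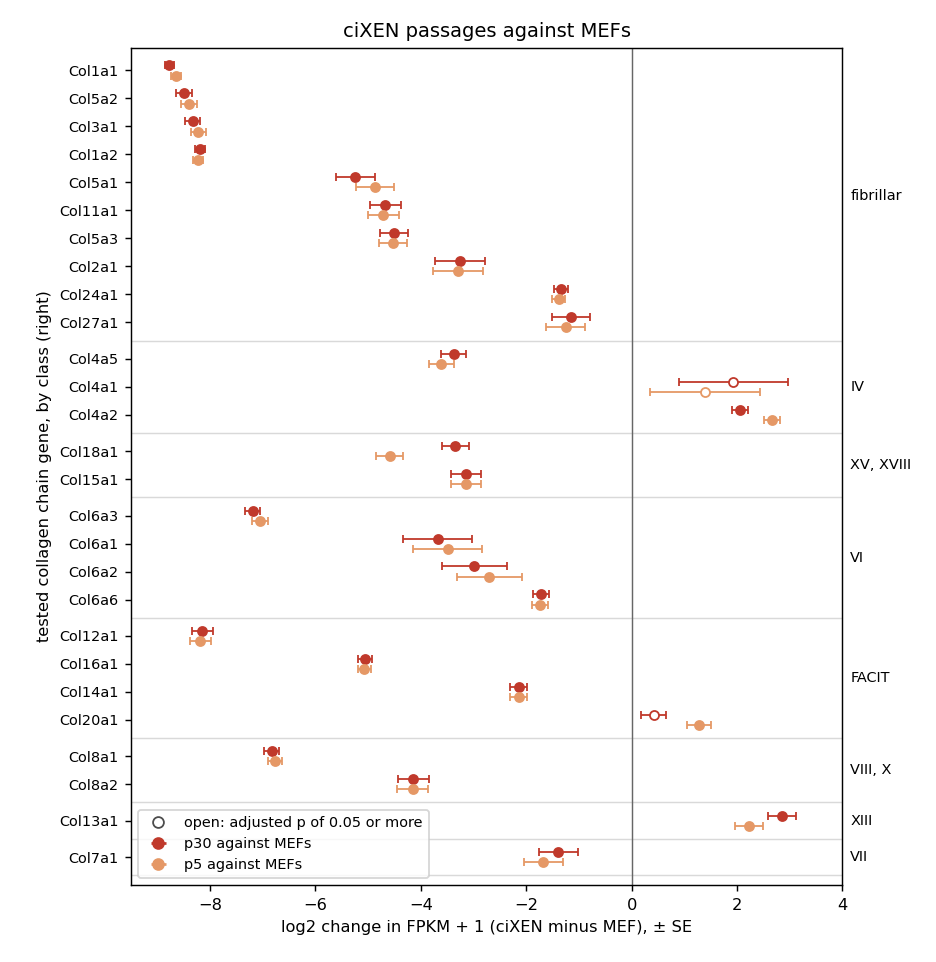
Log2 change of FPKM + 1 with its standard error for the 27 tested collagen chain genes, p30 against MEFs above p5 against MEFs, grouped by class. Open points (Col4a1 at both passages and Col20a1 at p30) had an adjusted p of 0.05 or more. Col14a1 was listed at 0 in every ciXEN library, so its point depends on the added 1.

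The summed FPKM of type IV collagen went the other way, and of its chains only Col4a2 rose. Col4a2 had 368, 377 and 493 FPKM in lines 1-1, 2-1 and 3-3 at p30, 601, 653 and 618 FPKM at p5, and 89.4, 122 and 84.7 FPKM in MEFs. Every ciXEN library lay above every MEF library, and the 3 p30 libraries lay under the 3 p5 libraries. The rise in ciXEN cells was 2.36 (SE 0.13, adjusted p = 2.9e-07). By rank, Col4a2 stood at place 38 to 102 of the listed genes in ciXEN libraries and at 413 to 655 in MEFs. The MEF libraries held 0.661 to 1.62 FPKM of Lama1, a laminin chain at 183 to 369 FPKM in ciXEN cells, beside these Col4a2 levels.

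Col4a1, the chain that joins Col4a2 in the common type IV trimer, split the ciXEN libraries instead. It had 52.6, 506 and 648 FPKM at p30, 93.6, 739 and 80.3 FPKM at p5, and 69.0, 99.5 and 44.0 FPKM in MEFs. Line 2-1 was high at both passages, line 1-1 was low at both, and line 3-3 was high at p30 and low at p5. The 3 low ciXEN libraries, at 52.6 to 93.6 FPKM, lay within the MEF range. The log2 change was 1.66 with a standard error of 0.90 (adjusted p = 0.13), and a mean of 353 ± 313 FPKM in ciXEN cells (SD, n = 6) was not told apart by this test from 70.8 ± 27.8 FPKM in MEFs (SD, n = 3). Against MEFs, p30 changed by 1.93 (adjusted p = 0.13) and p5 by 1.39 (adjusted p = 0.26). By qPCR the study reported Col4a1 expression in ciXEN cells at p5. Which lines that assay used is not stated, so the 2 were not compared line by line. Without p30 line 1-1 the change was 2.23 (adjusted p = 0.019) for ciXEN cells and 3.07 (adjusted p = 0.014) for p30, while over the alternatives the adjusted p reached 0.31 and 0.35.

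The ratio of the 2 chains shows the split without regard to scaling. Col4a1 stood at 0.143, 1.34 and 1.31 times Col4a2 at p30, at 0.156, 1.13 and 0.130 times at p5, and at 0.771, 0.818 and 0.519 times in MEFs. The ciXEN libraries thus fell into a set of 3 at 0.130 to 0.156 and a set of 3 at 1.13 to 1.34, with the MEFs between them.

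The split lay in 1 transcript. The full-length coding transcript, of 6615 bases and 52 exons, had 51.3, 504 and 646 FPKM at p30, 91.3, 736 and 77.8 FPKM at p5, and 68.8, 99.1 and 43.6 FPKM in MEFs (log2 change 1.65, SE 0.96, adjusted p = 0.20 over 23552 transcripts). It held 96.8% to 99.7% of the gene's FPKM in every library. A 1170-base transcript of 7 exons, whose bases all lie in the full-length one, did not follow it. It had 0.759, 1.07 and 1.77 FPKM at p30 and 1.06, 1.25 and 1.72 FPKM at p5, was listed at 0 in all MEF libraries, and passed the test (adjusted p = 7.5e-04). A 545-base transcript from the 5′ part had 0.455, 0.846 and 0.552 FPKM at p30, 1.19, 0.915 and 0.819 FPKM at p5, and 0.244, 0.361 and 0.342 FPKM in MEFs (log2 change 0.44, SE 0.14, adjusted p = 0.029). Neither short transcript split the ciXEN libraries the way the full-length one did. Each lay under 0.5 FPKM in every MEF library and passed the filter on low values through ciXEN cells alone. Such transcripts had to differ, so their calls are a description and no evidence. The call of the 545-base transcript was lost without p5 line 1-1 (0.40, adjusted p = 0.052), MEF library 1 (0.40, adjusted p = 0.084) or MEF library 3 (0.45, adjusted p = 0.058).

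A further annotated transcript, of the nonsense-mediated decay type, shares 6470 of its 6487 bases (99.7%) with the full-length one and was not analysed here. The study's primer pair for Col4a1 brackets the same 107 bases in the full-length, the 545-base and the 6487-base transcript and lies outside the 1170-base one. Any part of read sharing between the 2 long transcripts in the split was not tested. A search set after the split was seen looked for other features with every FPKM of 1 of these sets of 3 ciXEN libraries at least 4-fold over every FPKM of the other and at least 5 FPKM in the higher set. Of 13787 genes Col4a1 was the 1 that met it, and of 29521 transcripts 4 met it in the direction of Col4a1 and 3 in the opposite one. Col4a1 had to meet it, because the sets were taken from Col4a1 itself. Other ways to divide the ciXEN libraries were not searched, so the count does not say how unusual such a split is.

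**Figure D4:**
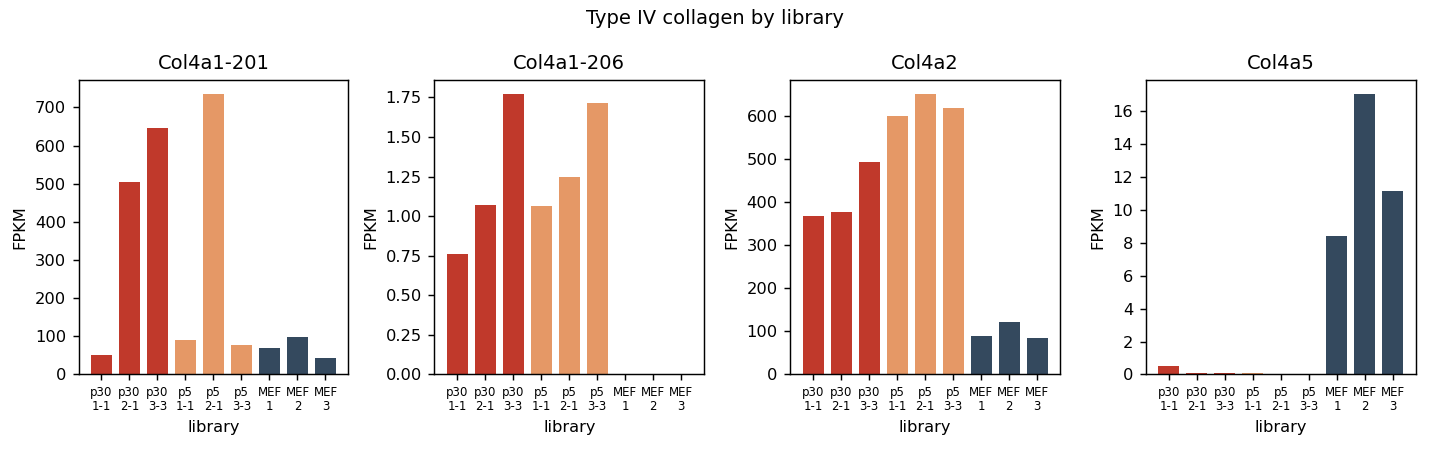
FPKM by library of the full-length and the 1170-base Col4a1 transcript, Col4a2 and Col4a5, with ciXEN p30, ciXEN p5 and MEFs from left to right. The full-length Col4a1 transcript is high in 3 of 6 ciXEN libraries (504 to 736 FPKM), Col4a2 in 6 of 6 (368 to 653 FPKM), and Col4a5 in the 3 MEF libraries (8.40 to 17.1 FPKM).

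Col4a5, a chain of the network found in kidney and lung basement membranes, opposed the other type IV chains. It had 0.519, 0.115 and 0.0947 FPKM at p30, 0.0626, 0.0305 and 0.0228 FPKM at p5, and 8.40, 17.1 and 11.2 FPKM in MEFs (log2 change −3.49, SE 0.21, adjusted p = 4.5e-07). The 3 MEF libraries lay above all ciXEN libraries. In ciXEN cells its FPKM came from the 6536-base transcript alone, and in MEFs the 6285-base transcript held 26.5% to 74.2%.

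The genes whose pattern was most like Col4a2 over the 9 libraries, by Pearson's r of log2(FPKM + 1), were Glipr1 (r = 0.993), Fam83b, Rdh13, Sumo3 and Gm17655. Those most like Col4a1 were Stx7 (r = 0.903), Lrrc8d, Dynll2, Hps5 and Tti1. Col4a1 and Col4a2 correlated at r = 0.533, which placed Col4a1 at 5712 in the order of likeness to Col4a2. These values describe 9 libraries in which the lines and groups recur.

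The basement membrane chains outside type IV were lower in ciXEN cells. Col18a1, a basement membrane collagen whose end fragment is endostatin, had 2.74, 0.892 and 2.48 FPKM at p30, 0.0366, 0.504 and 0.174 FPKM at p5, and 25.7, 29.0 and 31.2 FPKM in MEFs (log2 change −3.97, SE 0.23, adjusted p = 3.6e-07). All ciXEN libraries lay under all MEF libraries, and all p30 libraries over all p5 libraries. Col15a1, its closest relative, had 0, 0.0174 and 0.0171 FPKM at p30, 0.0199, 0.0193 and 0 FPKM at p5, and 7.71, 13.5 and 4.70 FPKM in MEFs (log2 change −3.15, SE 0.24, adjusted p = 2.9e-06). Basement membrane collagens as a class thus did not share a direction.

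Type VI collagen, which forms beaded filaments around cells, was lower but unevenly so. Col6a1 had 58.5, 22.8 and 6.65 FPKM at p30, 16.4, 49.2 and 17.3 FPKM at p5, and 253, 314 and 284 FPKM in MEFs (log2 change −3.59, SE 0.57, adjusted p = 3.6e-04). Col6a2, 85161 bases from it on chromosome 10 and on the same strand, had 86.5, 22.2 and 12.0 FPKM at p30, 22.6, 64.2 and 30.2 FPKM at p5, and 207, 265 and 238 FPKM in MEFs (log2 change −2.85, SE 0.53, adjusted p = 0.0010). Both were highest in the same 2 ciXEN libraries, p30 line 1-1 and p5 line 2-1, and neither reached a MEF level.

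Col6a3, the third chain of the common type VI trimer, was nearly without signal in ciXEN cells. It had 0.104, 0.0322 and 0.115 FPKM at p30, 0.0973, 0.145 and 0.354 FPKM at p5, and 135, 178 and 161 FPKM in MEFs (log2 change −7.12, SE 0.13, adjusted p = 3.7e-10). Col6a3 stood at no more than 0.0204 times Col6a1 in ciXEN cells and at 0.535 to 0.569 times in MEFs. Col6a1 in turn stood at 0.552 to 1.03 times Col6a2 in ciXEN cells and at 1.19 to 1.22 times in MEFs. The fourth listed chain, Col6a6, reached 0.0102 FPKM in ciXEN cells and 2.77 FPKM in MEFs and also fell.

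Among the fibril-associated collagens, which coat fibrillar collagen, Col12a1 was the highest in MEFs. It had 0.722, 1.02 and 0.711 FPKM at p30, 1.05, 0.539 and 0.754 FPKM at p5, and 533, 377 and 670 FPKM in MEFs (log2 change −8.16, SE 0.18, adjusted p = 1.1e-09). Col16a1 had 0.0638, 0 and 0.0167 FPKM at p30, 0.0371, 0.0188 and 0 FPKM at p5, and 30.1, 34.2 and 35.7 FPKM in MEFs (log2 change −5.07, SE 0.11, adjusted p = 9.9e-10). Col14a1 was listed at 0 in all 6 ciXEN libraries and at 3.21, 2.73 and 4.51 FPKM in MEFs, and Col9a2, a cartilage chain with up to 0.270 FPKM in ciXEN cells and 0.321 to 2.06 FPKM in MEFs, was too low to test.

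Col20a1 ran against this class. It had 1.11, 0.489 and 0.941 FPKM at p30, 2.81, 3.10 and 1.37 FPKM at p5, and 0.236, 0.530 and 0.356 FPKM in MEFs. The p5 libraries lay above all others, and p30 line 2-1 lay within the MEF range. It rose in ciXEN cells (log2 change 0.85, SE 0.20, adjusted p = 0.0040) and in p5 (1.28, SE 0.23, adjusted p = 9.0e-04), and its change of 0.42 in p30 did not pass (adjusted p = 0.14).

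The network chains of types VIII and X were all but unread in ciXEN cells. Col8a1, known from vessel walls and the back of the cornea, had 0.104, 0.141 and 0.148 FPKM at p30, 0.166, 0.253 and 0.129 FPKM at p5, and 152, 113 and 123 FPKM in MEFs (log2 change −6.80, SE 0.12, adjusted p = 3.7e-10). Col8a2 had 0.115, 0 and 0.0206 FPKM at p30, 0.0581, 0 and 0.0431 FPKM at p5, and 22.3, 9.43 and 24.8 FPKM in MEFs. Col10a1, a marker of hypertrophic cartilage, was listed at 0 in all ciXEN libraries and at 1.18, 0.459 and 0.795 FPKM in MEFs.

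Col13a1, a collagen anchored in the plasma membrane that is found where cells touch the matrix, rose in ciXEN cells. It had 8.40, 7.87 and 4.40 FPKM at p30, 3.47, 5.93 and 2.90 FPKM at p5, and 0.0279, 0.0707 and 0.0736 FPKM in MEFs (log2 change 2.54, SE 0.23, adjusted p = 7.5e-06). All ciXEN libraries lay above all MEF libraries. The transcript that held most of its FPKM differed between ciXEN libraries. The 3037-base transcript led in p30 line 1-1 (4.77 FPKM), the 2935-base one in p30 line 2-1 (7.23 FPKM) and p5 line 3-3 (2.42 FPKM), and the 3162-base one in the other 3 ciXEN libraries (3.21 to 4.96 FPKM).

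Col7a1, the chain of the fibrils that anchor epithelium to its base, had 0.479, 0.447 and 0.463 FPKM at p30, 0.202, 0.208 and 0.199 FPKM at p5, and 1.67, 7.02 and 1.64 FPKM in MEFs (log2 change −1.53, SE 0.32, adjusted p = 0.0020). MEF library 2 stood apart through the 9198-base transcript, which had 6.19 FPKM there and was listed at 0 in the other 8 libraries. On that transcript alone, the higher of the 2 by mean, the fall did not pass (−0.95, adjusted p = 0.18), while without MEF library 2 the summed gene fell by 1.00 (adjusted p = 3.7e-05). Of the remaining chains, Col26a1 had 0.0245, 0 and 0 FPKM at p30, 0.138, 0 and 0 FPKM at p5, and 1.05, 0.892 and 1.48 FPKM in MEFs. Col28a1 was listed at 0 in all ciXEN libraries and at 1.19, 1.05 and 1.25 FPKM in MEFs.

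Each passage on its own gave a similar count. Against MEFs, 23 of 27 genes fell and 2 rose (Col4a2 and Col13a1) at p30, where the background was 26.6% lower and 38.2% higher, and 23 fell and 3 rose at p5, where it was 25.8% and 40.7%. These comparisons share the MEF libraries. As in the pooled comparison, genes that passed the filter through MEFs alone or ciXEN cells alone had to differ, so these counts are a description.

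Between the passages few collagen genes moved. At p30 compared with p5, Col18a1 was higher and Col4a2 lower among the 27 tested genes, where the background was 3.08% higher and 5.61% lower. Col18a1, with the FPKM given above, rose by 1.25 (SE 0.26, adjusted p = 0.021), and it was higher at p30 in 3 of 3 lines. Col4a2 fell by 0.61 (SE 0.15, adjusted p = 0.038) and was lower at p30 in 3 of 3 lines. Markers of cell types moved between the passages too, and their part in these changes was not tested. Of the visceral endoderm markers 4 of 7 tested were higher at p30 (Apoe, Rbp4, Cubn and Dab2), and of the extraembryonic endoderm markers 2 of 6 (Gata6 and Sox7), with sums of 889 to 970 FPKM at p30 and 714 to 830 FPKM at p5. Of the endothelial markers 2 of 3 tested were higher and 1 lower (11.9 to 18.6 FPKM at p30 and 6.15 to 10.05 FPKM at p5). Of the chondrocyte markers Sox9 was lower (sum 8.56 to 14.1 FPKM at p30 and 24.0 to 34.1 FPKM at p5), as was Erbb3 of the Schwann cell markers. No fibroblast marker of 7 was called, though their sum was 1.80 to 3.72 FPKM at p30 and 5.13 to 10.7 FPKM at p5. Most of that sum was Thy1, with 1.13, 2.85 and 2.79 FPKM at p30 and 4.80, 10.1 and 4.42 FPKM at p5. Twist2 and Fap were listed at 0 in every ciXEN library.

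With the line as a block and only the 2 passages in the fit, Col18a1 had an adjusted p of 0.19 and Col4a2 of 0.15, with standard errors of 0.35 and 0.13, and no gene of the whole table was called, although 2538 genes had an unadjusted p under 0.05. The Col18a1 call was lost without p30 line 1-1 (1.07), p30 line 3-3 (1.12), p5 line 1-1 (1.13) or p5 line 3-3 (1.22), with an adjusted p of 0.051 to 0.080, and the Col4a2 call without any 1 of 6 libraries (all but p30 line 3-3 and MEF libraries 2 and 3), with a change of −0.63 to −0.53 and an adjusted p of 0.060 to 0.11. With library medians set equal, Col4a2 changed by −0.49 (adjusted p = 0.082), and the share of higher genes among all calls between the passages was 58.2% instead of 35.4%. Over the alternatives the adjusted p spanned 0.0073 to 0.19 for Col18a1 and 0.022 to 0.15 for Col4a2.

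Others differed between passages without passing. Col20a1 was lower at p30 in 3 of 3 lines, with no overlap (−0.87, SE 0.23, adjusted p = 0.051, and 0.016 to 0.21 over the alternatives). It passed without p5 line 3-3 (−1.11, adjusted p = 0.016), and with no filter, equal library sums or no trend (adjusted p = 0.0498, 0.0468 and 0.0479). Libraries did not overlap between the passages for 7 of the 27 tested genes, 4 higher at p30 (Col4a5, Col7a1, Col18a1 and Col24a1) and 3 lower (Col1a1, Col4a2 and Col20a1), where the background was 12.4% higher and 16.4% lower. Col5a1 changed by −0.37 (adjusted p = 0.59), and by −0.88 without p5 line 2-1 (adjusted p = 0.033), the 1 library left out that gave it a call.

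**Figure D5:**
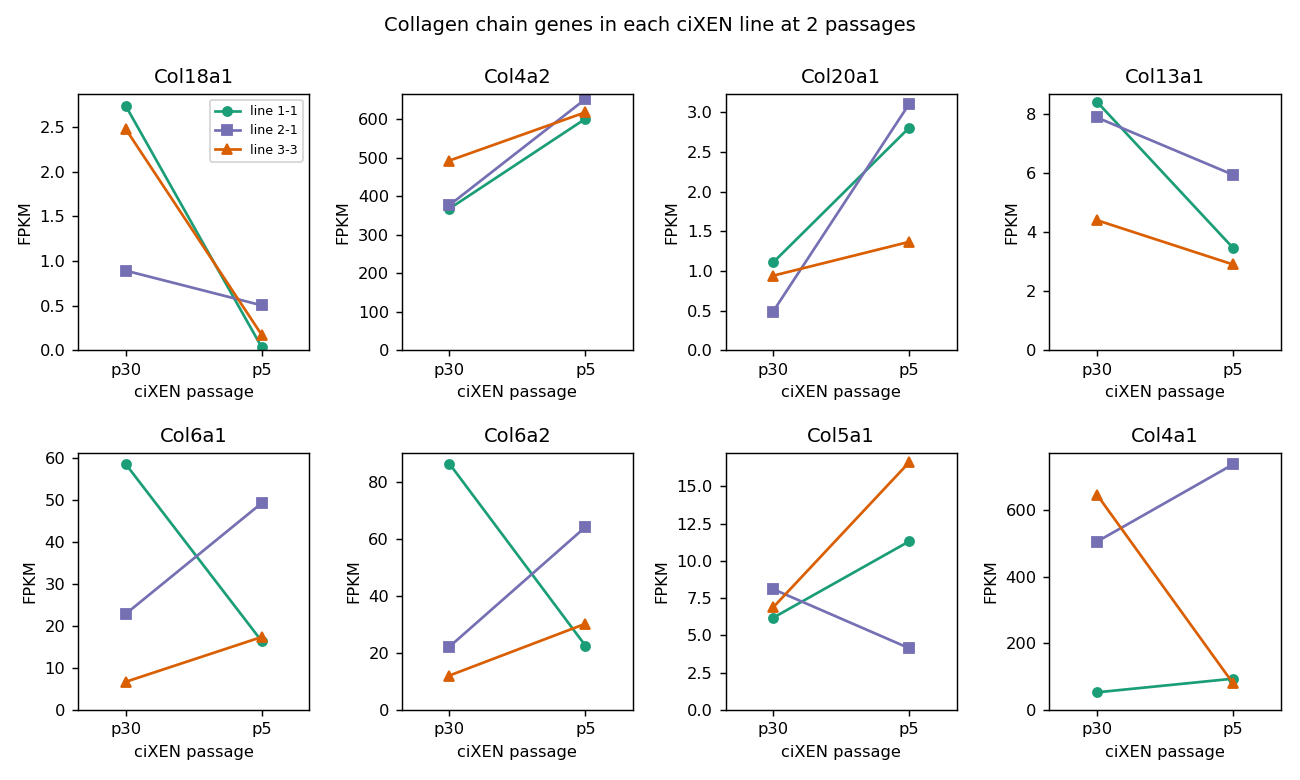
FPKM of 8 collagen chain genes in each ciXEN line, p30 left and p5 right, with a stroke joining the 2 passages of a line. Col18a1 and Col13a1 are higher at p30 in all 3 lines and Col4a2 and Col20a1 lower in all 3, while Col6a1, Col6a2, Col5a1 and Col4a1 go in different directions in different lines.

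The chains differed in how evenly the 6 ciXEN libraries held them. Of the 12 genes with a ciXEN mean of at least 1 FPKM, 7 spread by more than 4-fold between the lowest and the highest ciXEN library. Col18a1 spread by 74.9-fold, Col4a1 by 14.1-fold, Col6a1 by 8.80-fold, Col6a2 by 7.19-fold, Col20a1 by 6.35-fold, Col27a1 by 5.00-fold and Col5a1 by 4.02-fold. Col1a1 and Col1a2 spread by 1.19-fold and Col4a2 by 1.77-fold. In MEFs the 11 genes that averaged 100 FPKM or more spread by 1.17-fold to 1.77-fold. Among all genes that reached 100 FPKM in a group, a spread over 5-fold within it was seen for 4 of 701 at p30, 3 of 643 at p5 and 5 of 630 in MEFs. That rule has a higher level, a larger fold and fewer libraries, so it is no background for the 7 of 12 genes. The share of all genes with a spread over 4-fold at that lower level was not computed, so the 7 of 12 is a description.

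Genes that modify, carry, cut and bind collagen chains were read from lists chosen by function. The counts stand against a background of 42.4% higher and 27.6% lower over all tested genes, and a listed gene low in 1 kind of cell could pass the filter through the other alone. Enzymes that hydroxylate prolines and lysines or add sugars, steps that a chain needs before it can fold, were mixed, with 3 of 14 tested genes higher and 7 lower in ciXEN cells. P3h2, a prolyl 3-hydroxylase that acts on type IV collagen, rose to 13.8 ± 0.861 FPKM at p30 and 17.2 ± 4.82 FPKM at p5, against 2.13 ± 0.650 FPKM in MEFs (SD, n = 3 each; log2 change 2.40, SE 0.18, adjusted p = 2.5e-06), and P4ha2, a catalytic subunit of prolyl 4-hydroxylase, by 0.79 (SE 0.29, adjusted p = 0.034). P3h3 fell by 4.26 (SE 0.15, adjusted p = 1.4e-08) and P4ha3 fell by 4.04 (SE 0.24, adjusted p = 4.5e-07). P4hb, the shared subunit of prolyl 4-hydroxylase, had 363 ± 50.8 FPKM at p30, 411 ± 35.1 FPKM at p5 and 452 ± 40.8 FPKM in MEFs (SD, n = 3 each). It did not pass in the pooled comparison (adjusted p = 0.067) or at p5 (−0.14, adjusted p = 0.32), and it fell at p30 (−0.32, adjusted p = 0.035).

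Of 12 genes for folding and secretion 1 rose and 9 fell. Serpinh1, the collagen chaperone HSP47, had 510 ± 122 FPKM at p30, 400 ± 79.2 FPKM at p5 and 423 ± 68.3 FPKM in MEFs (SD, n = 3 each; log2 change 0.08, SE 0.18, adjusted p = 0.71), so no difference was detected where total collagen FPKM was lower in every ciXEN library. Fkbp10, which works on type I collagen, fell by 6.35 (SE 0.17, adjusted p = 2.6e-09) and Fkbp7 fell by 3.96 (SE 0.32, adjusted p = 3.9e-06), while Mia2, of the machinery for large cargo, rose by 0.69 (SE 0.12, adjusted p = 6.7e-04).

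Genes that act on collagen after secretion were lower. All 7 tested genes for propeptide removal, which fibrillar chains need to form fibres, fell, among them Pcolce (log2 change −7.01, SE 0.18, adjusted p = 2.1e-09) and Tll1 (−4.54, SE 0.11, adjusted p = 1.7e-09). Of the 6 crosslinking genes 4 fell, led by Lox (log2 change −8.63, SE 0.13, adjusted p = 1.4e-10) and Loxl1 (−6.53, SE 0.11, adjusted p = 3.6e-10). The other 2 are known to act on type IV collagen, and neither passed the test. Loxl2 had 33.6 to 92.5 FPKM in ciXEN cells and 54.2 to 128 FPKM in MEFs (adjusted p = 0.14), and Pxdn, the peroxidase of sulfilimine bonds, 21.1 to 42.3 FPKM in ciXEN cells and 34.8 to 48.4 FPKM in MEFs (adjusted p = 0.083).

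Partners of fibril assembly fell in 10 of 10 tested genes, led by Bgn (log2 change −8.65, SE 0.088, adjusted p = 1.5e-11) and Postn (−8.40, SE 0.13, adjusted p = 1.7e-10). Of 8 collagen receptors 5 fell and none rose. Itga11, a receptor of fibrillar collagen, fell by 5.60 (SE 0.11, adjusted p = 6.3e-10) and Ddr2, another, fell by 5.48 (SE 0.21, adjusted p = 2.5e-08), while Ddr1, a receptor that epithelia carry and that also binds type IV collagen, had 3.46 to 13.5 FPKM in ciXEN cells and 7.90 to 10.2 FPKM in MEFs (adjusted p = 0.51). Of the collagenases, gelatinases and their inhibitors all 6 tested genes fell, with Mmp2 (log2 change −6.14, SE 0.25, adjusted p = 3.9e-08) and Mmp14 (−6.03, SE 0.27, adjusted p = 6.7e-08) first.

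The basement membrane partners of type IV collagen went both ways, with 6 of 12 tested genes higher, near the background of 42.4%, and 5 lower. Lama1, the alpha chain of laminin-111, rose by 6.95 (SE 0.24, adjusted p = 1.3e-08), and Lamb1 by 2.22 (SE 0.086, adjusted p = 2.9e-08) to 393 ± 43.3 FPKM at p30 and 312 ± 17.6 FPKM at p5, against 74.6 ± 6.45 FPKM in MEFs (SD, n = 3 each). Lama4 fell by 3.95 (SE 0.38, adjusted p = 1.3e-05) and Lama2 fell by 3.63 (SE 0.13, adjusted p = 2.2e-08). Between the passages, Agrn (0.77, SE 0.12, adjusted p = 0.0080) and Hspg2 (0.74, SE 0.16, adjusted p = 0.026), proteoglycans of the basement membrane, were higher at p30. Elsewhere in the lists Sec23a and Pdia3 were higher at p30 and P4ha3 lower. With the line as a block none of these passage calls remained.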

How the data were processed

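Total RNA of 9 libraries was depleted of ribosomal RNA and sequenced as stranded libraries by Illumina. The authors deposited FPKM values per transcript, 1 column for each library. As tools, the submitters' processing notes list STAR 2.5.2b, HISAT2 2.0.5, StringTie and cutadapt, and as genome the human build hg19, although every matched ID is a mouse transcript. The aligner and build behind the FPKM: not given in the sources used here.

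Of 29599 transcripts, 29521 matched GENCODE M21 on GRCm38 by stable ID. The other 78 (0.158% of the FPKM) were left out. Of the matched transcripts 29431 are protein-coding. FPKM were summed per gene. Of low values 27.1% to 30.3% lay near whole steps, within 0.1 of a step, where chance gives 20%, so no read counts were rebuilt and no count test was run.

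Groups were compared in 1 fit of all libraries with limma 3.58.1 in R 4.3.3 (lmFit, eBayes with trend, 6 residual degrees of freedom) on log2(FPKM + 1), for genes whose mean reached 0.5 FPKM. Benjamini-Hochberg adjustment was over all 12443 genes within a comparison. The fit was tested on simulated data. Same-numbered p5 and p30 libraries are the same line by their labels, and their deviations from the group means correlated at −0.0054, 0.014 and 0.071. The MEF libraries have no line in common with them.

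Full values are given for Col4a1 and its transcripts, the 3 highest chains of each class, chains called between passages, against their class or higher in ciXEN cells. Of each pathway list at most 2 rises and 2 falls are named by rule, and the others were named after their values were seen. The members and lists were chosen with earlier results of these data known. Alternatives were pseudocounts of 0.1 and 0.5, no filter or a mean of 1 FPKM, equal sums or medians, quantile normalisation, no trend, the replicate block, only the groups compared, line means, the highest transcript of a gene, and leaving out each library. Protein sequence features were not analysed here.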

Additional observations from a re-analysis of the deposited data

Results flagged for a closer look

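The p30 and p5 effects against MEFs differed for Col18a1, by 1.25 on the log2 scale (limma's test of p30 against p5, adjusted p = 0.021), with log2 changes of −3.34 at p30 and −4.59 at p5. They differed for Col4a2 by −0.61 (adjusted p = 0.038), with changes of 2.06 at p30 and 2.67 at p5. Neither difference passed with the line as a block.

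Among the 6 ciXEN libraries, Col4a5 was highest in p30 line 1-1, at 0.519 FPKM, far from the next library at 0.115 FPKM. All these values are low, and Col4a5 exceeded 0.5 FPKM in the flagged library alone. Dixon's test of the highest and the lowest library was applied to 16 collagen genes, and chance gives such a result in about 1 of 20 groups. With 16 genes tried, 1 flag is no evidence that this library differs.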

How the results depend on the processing

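In the comparisons with MEFs the counts were stable over the alternatives: 21 to 27 collagen genes lower and 3 or 4 higher in ciXEN cells, 21 to 27 and 2 or 3 at p30, and 21 to 27 and 3 at p5. Genes that passed the filter through MEFs alone or ciXEN cells alone had to differ, so the stability of their calls is no evidence. Of 538 gene values under the alternatives in each of these comparisons, 536, 532 and 537 kept their side of the threshold, and none that was called changed sign. With library medians set equal, the median log2 change of all genes at p5 against MEFs was 0.12 instead of 0.22. The replicate block with MEFs in the fit changed no call against MEFs other than that of the 545-base Col4a1 transcript.

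The count of collagen genes lower at p30 than at p5, 1 in the first analysis, was 2 with no filter and with equal sums, and 0 with equal medians, with the highest transcript alone, with only the 2 passages in the fit and with the replicate block (all 9 libraries, or only the 2 passages). Leaving out each library gave 0 to 1. The count higher at p30, also 1, was 0 with the replicate block and only the 2 passages, and 0 to 1 with a library left out. These counts did not always hold the same gene: with only the 2 passages in the fit and no block, Col7a1 (0.28, adjusted p = 0.031) was called higher in place of Col18a1 (adjusted p = 0.086), and with no trend Col20a1 was called lower (adjusted p = 0.048) in place of Col4a2 (adjusted p = 0.060). The 545-base Col4a1 transcript no longer passed after quantile normalisation (0.39, adjusted p = 0.053) or with the replicate block (0.44, adjusted p = 0.060), and ranged over 0.39 to 0.47 with a library left out. The full-length Col4a1 transcript ranged over 1.13 to 2.22, and it passed without p30 line 1-1 (2.22, adjusted p = 0.047). The cause was not tested.

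Depth is unknown, so no detection limit can be given for a chain listed at 0. The FPKM of a gene rest on how the deposited values share reads among its transcripts, which was not tested.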

Other observations

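Of 553 genes at 100 FPKM or more in MEFs, 42 stood under 1% of their MEF mean in ciXEN cells, with a median of 0.142% and the lowest at 0.0203%. Of the 11 collagen genes at that MEF level, 7 stood under 1%, from 0.0893% (Col6a3) to 0.224% (Col1a2), among them Col1a1, Col1a2, Col3a1 and Col5a2.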
